A study of Mus musculus with 10 samples.

Results

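Connexins are the membrane proteins of gap junctions. They assemble into channels that dock between neighbouring cells and pass ions and small metabolites, and which connexins a cell makes sets which channels it can form. Mouse embryonic stem (ES) cells are known to be coupled by gap junctions, and Gja1 (Cx43) is the connexin most often described in them. The connexin genes Gjb5, Gjb2, Gja1, Gja4 and Gjc1 were chosen by name, with earlier results of these data known. They were read in every sorted fraction, 5 rows of the 32361 in the deposited table. Of the 5, 3 reached 1 FPKM (fragments per kilobase of transcript, scaled to the mapped fragments of the library) in at least 1 fraction, namely Gja1, Gjc1 and Gjb5, and 2 did not, namely Gjb2 and Gja4. Further genes of the family were read beside them, to 18 connexins in all, and Gjb1 is described because it also reached 1 FPKM.

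All cells were E14Tg2a.4 mouse ES cells, separated by fluorescence-activated sorting. One line carried knock-in reporters at Esrrb and at Tbx3, which encode transcription factors of naive pluripotency, and gave an Esrrb-negative/Tbx3-negative fraction (double-negative), an Esrrb-positive/Tbx3-negative fraction (single-positive) and an Esrrb-positive/Tbx3-positive fraction (double-positive). A different line carried a piggyBac reporter under a Zscan4c promoter fragment, which marks a rare state with transcripts of the cleavage-stage embryo, and was sorted into Zscan4-positive and Zscan4-negative cells. The sources used here do not state whether each line is 1 clone, nor the culture conditions. Each of the 5 fractions had 2 libraries by its labels, from cells collected on different days, but the deposited table holds 1 merged FPKM value per gene and fraction. The differences below therefore come without SD, test or replicate check, and the read depth is unknown. Differences are of log2(FPKM + 1), which understates those of low genes, and "higher" and "lower" are used where the difference reached 2-fold on that scale. These are bulk values, so a change in the number of cells that hold a transcript and a change in its level per cell cannot be told apart.

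The sorted genes followed the labels. Tbx3 was at 0.638 FPKM in double-negative cells, 1.75 in single-positive cells and 12.6 in double-positive cells. Esrrb was at 43.3 FPKM in double-negative cells, 177 in single-positive cells and 243 in double-positive cells, and Zscan4c was at 120 FPKM in Zscan4-positive and 0.255 in Zscan4-negative cells. All 7 ES cell marker genes examined were above 1 FPKM in every fraction. The double-negative and single-positive columns stand apart from the rest in a further way: 13 fibroblast marker genes summed to 1954 FPKM in double-negative cells and to 1382 in single-positive cells, against 26.8 to 36.0 in the other fractions, and 10 T-lineage marker genes to 559 and 397 FPKM, against 21.6 to 34.8. Of these markers 9 fibroblast and 4 T-lineage genes fell among 484 rows with the same profile, a set defined after seeing the data, which made up 1.61% of the FPKM total in double-negative cells and 1.10% in single-positive cells and under 0.05% elsewhere. None of the 18 connexins was among these 484 of the 32361 rows. The set takes only rows that nearly vanish in the other fractions, so it cannot hold a gene that those fractions also express. It therefore does not measure the part of these transcripts in the connexin levels. The fibroblast and T-lineage levels are given again beside Gja1, which fibroblasts also express.

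Gjb5 (Cx31.1), a beta connexin known from epidermis and from trophoblast of the placenta, was the listed gene that varied most. It lies on chromosome 4 (mm10, 127354809 to 127358164, minus strand), has 1 transcript of 2 exons in GENCODE and overlaps no other gene there. It was at 1.79 FPKM in double-negative cells, 17.5 in single-positive cells and 30.5 in double-positive cells, and at 12.6 in Zscan4-positive and 13.8 in Zscan4-negative cells. The double-negative fraction thus held the lowest level and the other 4 fractions were all above 10 FPKM. In plain FPKM the single-positive level was 9.77 times and the double-positive level 17.0 times that of double-negative cells.

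The promoter of Gjb5 is shown because Gjb5 was the member past 2-fold between sorted fractions, and it was searched for 4 short motifs on both strands: AAGGTCA, the half-site bound by orphan nuclear receptors such as ESRRB, GCCNNNGGC of AP-2 factors such as TFAP2C, AGGTGT of T-box factors such as TBX3, and CCNCNCCC of Kruppel-like factors. The 250 bases before the RefSeq start of Gjb5 (GRCm38.p6, chr4:127358165-127358414, minus strand) held 1 match to AAGGTCA, 193 to 187 bases before the start, and 1 to GCCNNNGGC, 71 to 63 bases before it, and these do not overlap. In each sequence below, capitals mark matches to any of the 4 motifs.

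Gjb5: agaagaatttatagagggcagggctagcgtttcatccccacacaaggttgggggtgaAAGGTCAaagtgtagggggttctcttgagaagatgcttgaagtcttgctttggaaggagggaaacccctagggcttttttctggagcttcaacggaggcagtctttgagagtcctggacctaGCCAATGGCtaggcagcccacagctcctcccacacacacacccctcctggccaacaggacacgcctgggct

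Of 32851 promoter windows of this length in the table, 4.08% held AAGGTCA, 13.7% GCCNNNGGC, 11.8% AGGTGT and 45.9% CCNCNCCC. Both of the first pair occurred together in 127 windows, or 0.387%, a combination counted after the Gjb5 matches had been seen. A window before 1 of the 4 RefSeq starts of Gjb1 also held both (GRCm38.p6, chrX:101381868-101382117, plus strand), with the half-site on the other strand 108 to 102 bases and the AP-2 match 81 to 73 bases before that start, besides 1 Kruppel-like match. The other 3 Gjb1 windows held neither, and which start these cells use was not measured.

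Gjb1: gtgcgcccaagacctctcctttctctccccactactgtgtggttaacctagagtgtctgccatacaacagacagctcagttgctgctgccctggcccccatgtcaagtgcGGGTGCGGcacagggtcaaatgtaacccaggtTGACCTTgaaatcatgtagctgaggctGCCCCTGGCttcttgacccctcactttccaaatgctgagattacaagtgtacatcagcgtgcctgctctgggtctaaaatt

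The 250 bases before the Gja1 start held no match to any of the 4 motifs, as did 41.2% of all windows. They are shown for contrast, up to the first base of the deposited row (GRCm38.p6, chr10:56377050-56377272, plus strand).

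Gja1: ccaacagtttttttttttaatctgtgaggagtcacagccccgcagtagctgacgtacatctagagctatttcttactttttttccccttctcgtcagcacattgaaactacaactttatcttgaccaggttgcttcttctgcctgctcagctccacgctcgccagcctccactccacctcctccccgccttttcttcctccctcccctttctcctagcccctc

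The Gjb2 window held 1 AP-2 match, overlapped by 1 of its 7 Kruppel-like matches, and 1 T-box match, and the Gja4 window held 1 Kruppel-like match, and neither gene reached 1 FPKM. RefSeq windows were found for 4 of the 5 listed genes, and the one for Gjc1 was not analysed here. A match is a run of letters and shows no binding.

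As a distance between log2(FPKM + 1) profiles centred on their means, the nearest to Gjb5 of 9738 coding and long noncoding rows with at least 5 FPKM, connexins left out, were Lrrc34 at 0.55, Mras at 0.57 and Krt42 at 0.64. Lrrc34 was at 4.64 FPKM in double-negative cells, 37.1 in single-positive cells and 51.2 in double-positive cells. With 5 fractions, of which the double-negative one lies far below the rest, this likeness is only a description.

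Gja4 (Cx37), an alpha connexin known from arterial endothelium and from the junctions between oocyte and granulosa cells, was at 0.240 FPKM in double-negative cells, 0.763 in single-positive cells and 0.860 in double-positive cells, and at 0.756 in Zscan4-positive and 0.655 in Zscan4-negative cells. Its lowest level was in double-negative cells, but it stayed below 1 FPKM throughout. It lies on chromosome 4 (mm10, 127311420 to 127314039, minus strand). Of 9 endothelial markers 5 reached 1 FPKM, led by Egfl7 at 19.8 FPKM in double-negative cells, 20.5 in single-positive cells and 27.2 in double-positive cells, and the list summed to between 29.7 and 38.3 FPKM. The defining marker Cdh5 was at or below 0.0940 FPKM and Emcn was listed at 0 in every fraction. The part of such cells in the Gja4 level was not tested.

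Gja1, the alpha connexin named above, had its highest level where Gjb5 had its lowest. It lies on chromosome 10 (mm10, 56377273 to 56390419, plus strand) and was at 180 FPKM in double-negative cells, 93.6 in single-positive cells and 107 in double-positive cells, and at 125 in Zscan4-positive and 166 in Zscan4-negative cells. Of the 5 genes it had the highest level in every fraction. The Gja1 level was 101 times that of Gjb5 in double-negative cells, 5.35 times in single-positive cells and 3.49 times in double-positive cells, and 9.94 times in Zscan4-positive and 12.0 times in Zscan4-negative cells. Its double-negative level was the highest of the 5, with the Zscan4-negative level next. The nearest profiles were those of Tcfl5, Zfp423 and Slc1a3, at distances of 0.16, 0.17 and 0.21.

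The fibroblast and T-lineage markers of the double-negative column bear on Gja1, because Gja1 is expressed by fibroblasts. As a share of the double-negative level, Gja1 was at 51.9% in single-positive, 59.1% in double-positive, 69.5% in Zscan4-positive and 91.9% in Zscan4-negative cells. The 11 fibroblast markers with at least 1 FPKM in double-negative cells had medians of 70.6%, 1.38%, 1.36% and 1.18% in the same order. The Zscan4 fractions are from the other reporter line, so in their shares line and sort differ together. In single-positive cells 10 of the 11 lay above Gja1, while in double-positive cells they ranged from 1.24% to 18.7% and all lay below it. The 9 T-lineage markers with at least 1 FPKM in double-negative cells had medians of 70.2% in single-positive cells, where 8 lay above Gja1, and 3.11% in double-positive cells, where 1, Cd2 at 74.9%, lay above it. Dcn and Lum were below 1 FPKM in every fraction. How much of the Gja1 difference between double-negative and the other fractions comes with these markers was not tested. The part of these transcripts in the other connexin levels was not tested either.

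**Figure D1:**
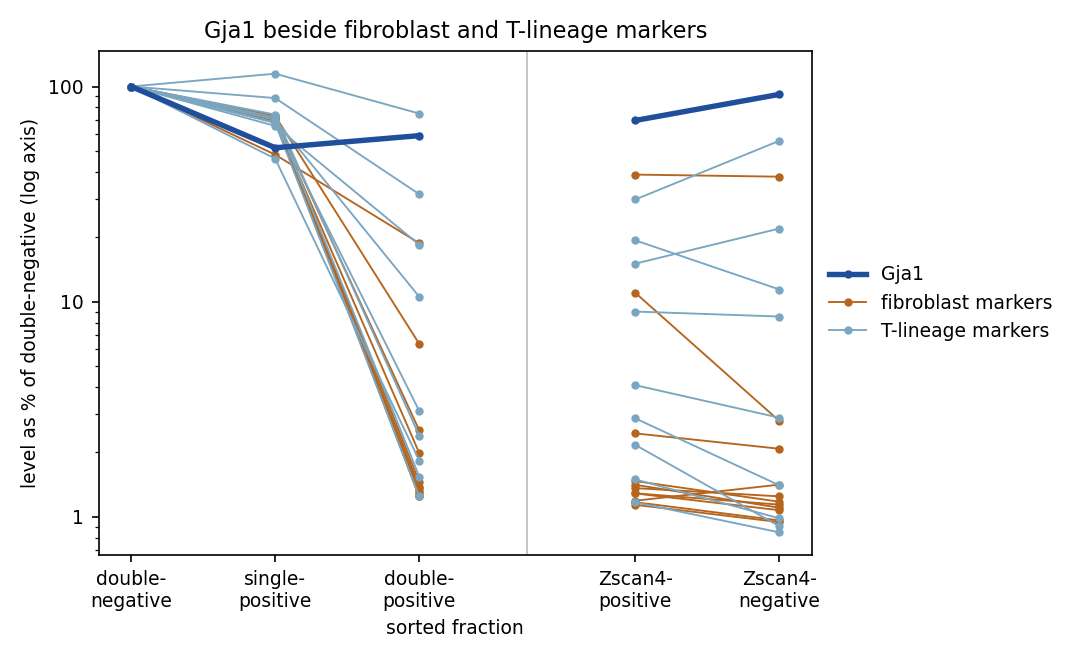
Levels of Gja1 (thick line) and of 11 fibroblast and 9 T-lineage marker genes in each fraction as a percentage of the double-negative level, on a log axis; each line is 1 gene. Gja1 stayed between 51.9% and 91.9% outside the double-negative fraction. The fibroblast median was 70.6% in single-positive cells, above Gja1 at 51.9%. It was 1.38% in double-positive, 1.36% in Zscan4-positive and 1.18% in Zscan4-negative cells. The Zscan4 fractions are from the other reporter line.

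Gjc1 (Cx45), a gamma connexin needed in the early heart, varied least among the 3 expressed members. On chromosome 11 (mm10, 102799478 to 102819686, minus strand), it was at 27.3 FPKM in double-negative cells, 43.8 in single-positive cells and 43.3 in double-positive cells, and at 33.3 in Zscan4-positive and 44.6 in Zscan4-negative cells. The single-positive, double-positive and Zscan4-negative levels lay close together, with the Zscan4-positive and double-negative levels below them. Its nearest profiles were Ina, Skp2 and Wdr76, at 0.07, 0.09 and 0.10.

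Gjb2 (Cx26), a beta connexin of liver and inner ear on chromosome 14 (mm10, 57098602 to 57104702, minus strand), was close to 0 throughout. Its levels were 0.410 FPKM in double-negative cells, 0.120 in single-positive cells and 0.147 in double-positive cells, and 0.245 in Zscan4-positive and 0.149 in Zscan4-negative cells. Such values cannot be told from no expression here, since depth is unknown. Of the 18 connexins 14 stayed below 1 FPKM in every fraction, and Gje1 was listed at 0 in all. Gjb1 (Cx32), a beta connexin of liver and Schwann cells on chromosome X, was at 1.30 FPKM in double-negative cells, 11.2 in single-positive cells and 12.0 in double-positive cells, and at 15.9 in Zscan4-positive and 10.7 in Zscan4-negative cells.

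**Figure D2:**
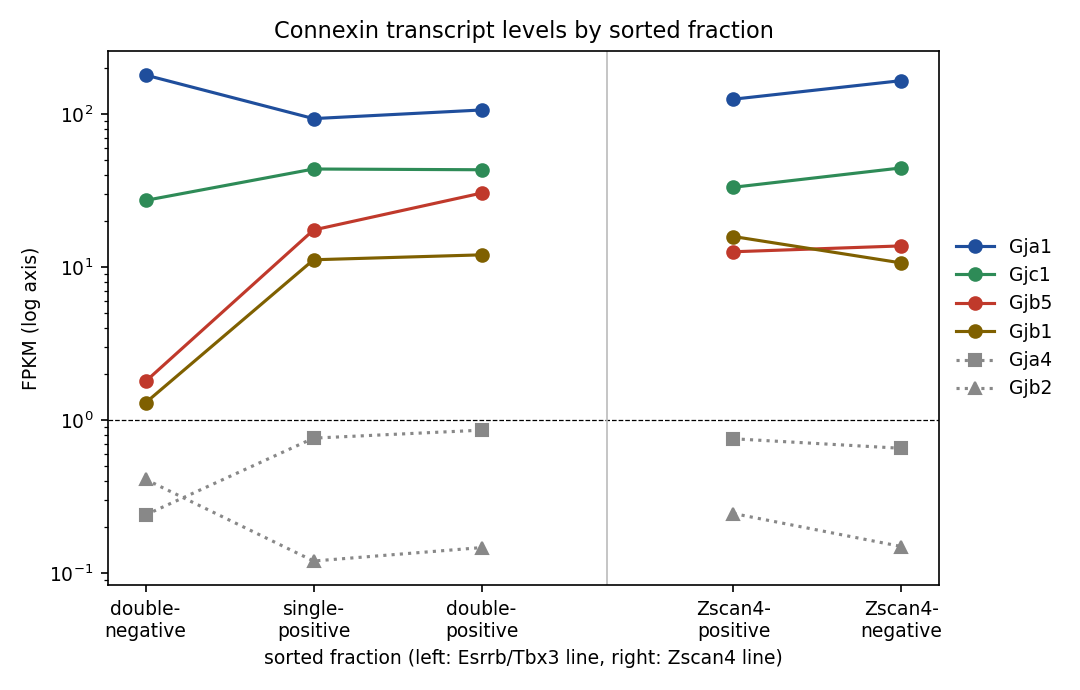
FPKM (log axis) of the 5 listed connexins and of Gjb1 in the 5 sorted fractions, 1 merged value per point; the dashed line marks 1 FPKM and the vertical line separates the reporter lines. Gjb5 and Gjb1 were lowest in double-negative cells, where Gja1 was highest, and Gja4 and Gjb2 stayed below 1 FPKM.

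The step from double-negative to single-positive cells asks what accompanies Esrrb while Tbx3 is low. Gjb5 was higher by 2.73 (log2), at 17.5 against 1.79 FPKM, the only one of the 3 expressed members past 2-fold, and none was lower. Over all 13595 rows that reached 1 FPKM, 1.82% were higher and 1.43% lower, and 16 rows had a larger positive difference than Gjb5. Because Gjb5 was listed with earlier results of these data known, its ranks here and below are only a description. Gjc1 differed by 0.66 and Gja1 by -0.94, just short of 2-fold. The median of the 3 was 0.66, against -0.02 over all rows. Gjb1 was higher by 2.40, at 11.2 against 1.30 FPKM, and 26 rows had a larger positive difference.

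Within Esrrb-positive cells, the double-positive fraction was compared with the single-positive one, which asks what accompanies Tbx3. No member reached 2-fold, where 0.346% of all rows were higher and 6.94% lower. Gjb5 differed by 0.77, at 30.5 against 17.5 FPKM, and 100 of the 13595 rows had a larger positive difference. Gja1 differed by 0.19, Gjc1 by -0.02 and Gjb1 by 0.10, and the median of the 3 members was 0.19 against 0.01 over all rows. Esrrb itself was at 243 against 177 FPKM, so Esrrb and Tbx3 both differ across this step. The fibroblast markers differ across it too, summing to 31.9 FPKM in double-positive against 1382 in single-positive cells. The T-lineage markers summed to 34.8 against 397 FPKM. Their part in the connexin differences and in the share of rows lower was not tested.

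Across both steps, double-positive over double-negative, Gjb5 was higher by 3.50, at 30.5 against 1.79 FPKM, and Gjb1 by 2.50, while 3.81% of all rows were higher and 12.2% lower. Of the 3 members Gjb5 was past 2-fold. Gjc1 differed by 0.65 and Gja1 by -0.75. This comparison shares its columns with the 2 steps and adds no separate evidence to them.

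Zscan4-positive were compared with Zscan4-negative cells, which asks what accompanies the rare state. Tbx3 also differs across this sort, at 35.3 FPKM in Zscan4-positive and 11.4 in Zscan4-negative cells. None of the 3 members reached 2-fold, against 3.46% of all rows higher and 0.875% lower. Gja1 was at 125 against 166 FPKM and Gjc1 at 33.3 against 44.6, differences of -0.40 and -0.41, and Gjb5 differed by -0.12. Gjb1 differed by 0.53, at 15.9 against 10.7 FPKM.

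**Figure D3:**
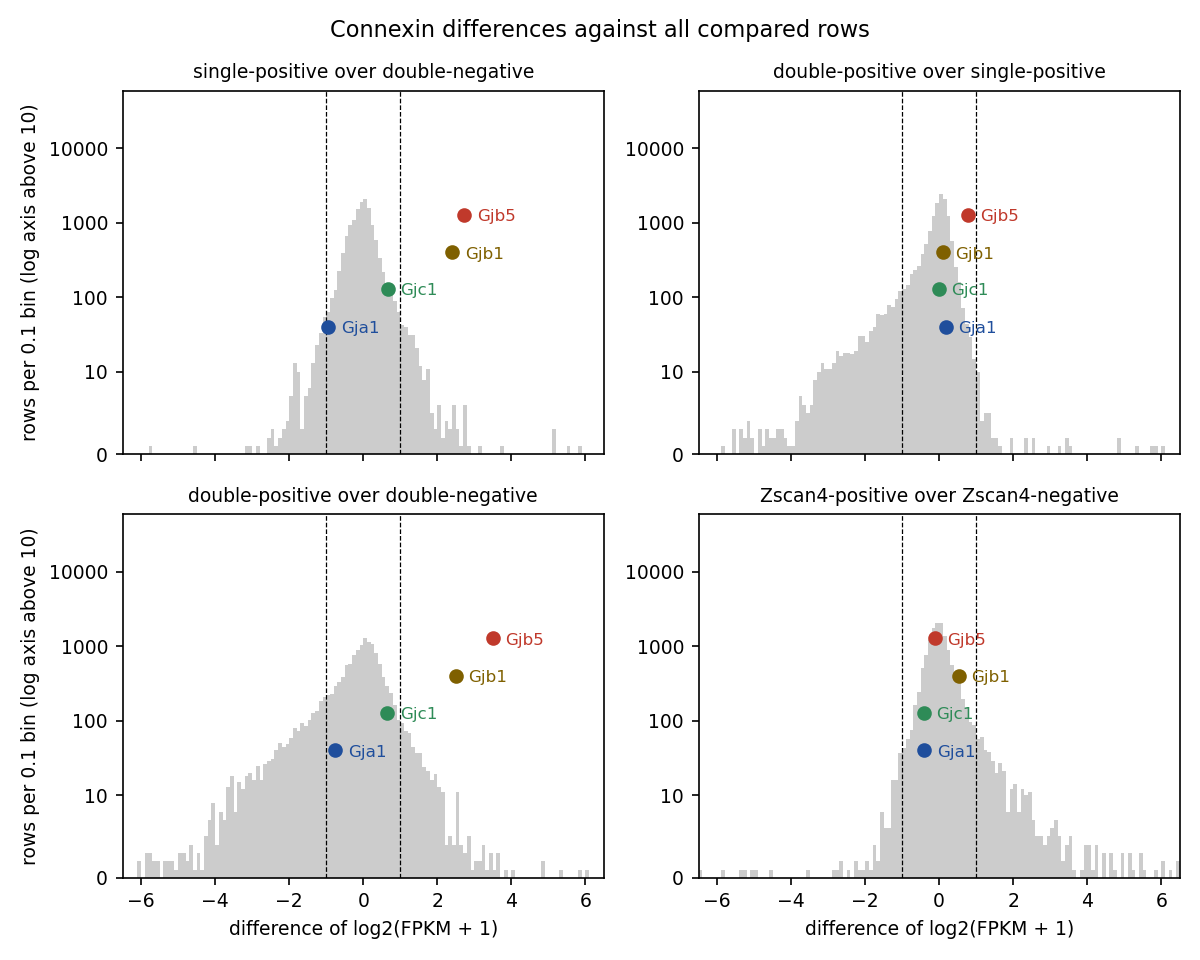
Differences of log2(FPKM + 1) in the 4 comparisons: grey bars count all 13595 compared rows per bin of 0.1, and coloured points give Gjb5, Gjb1, Gjc1 and Gja1 at arbitrary heights; dashed lines mark 2-fold, and 4 to 12 rows per panel lie beyond the axis. Gjb5 and Gjb1 stand to the right of the upper line in both comparisons with double-negative cells and inside the lines in the others.

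Other junction genes were read in the same way, against shares of all rows of 1.82% higher and 1.43% lower in single-positive over double-negative cells and of 3.81% higher and 12.2% lower in double-positive over double-negative cells. Of 13 genes of connexin partners and regulators, all of which reached 1 FPKM, none was higher in single-positive cells than in the double-negative fraction and 1 was lower, the actin-binding Dbn1, at 8.03 against 17.6 FPKM. The scaffold gene Tjp1, whose product binds connexin tails, was at 25.2 FPKM in double-negative cells, 21.7 in single-positive cells and 23.2 in double-positive cells. Cav1, the caveolin gene, was the 1 of the 13 lower in double-positive than in single-positive cells, where 6.94% of all rows were lower. It was at 0.202 against 8.97 FPKM, and the fibroblast markers were high in single-positive cells too. With double-positive set against double-negative cells, 2 of the 13 were lower and none was higher. These were Cav1, at 0.202 against 12.5 FPKM, and Dbn1, at 4.62 against 17.6. The part of the fibroblast markers in either comparison was not tested. Median differences of the 13 genes were -0.11 for the Esrrb step, -0.06 for the Tbx3 step and -0.05 for the Zscan4 sort, against -0.02, 0.01 and -0.01 over all rows.

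Tight junction genes were mixed. Of 12 genes 2 were lower in single-positive cells than in the double-negative fraction, Cldn7 at 4.83 against 10.7 FPKM and Ocln, named after its values were seen, at 1.04 against 3.16, and none was higher. The median difference of the 12 was -0.27. In double-positive cells the claudin gene Cldn4 was at 96.5 FPKM and the scaffold gene Tjp3 at 16.9, against 39.1 and 6.68 in double-negative cells, which were the 2 genes past 2-fold there. Of 12 adherens junction and desmosome genes that reached 1 FPKM, none was past 2-fold in the Esrrb step, and the desmosomal cadherin gene Dsg2 was the only one in double-positive against double-negative cells, at 10.4 against 4.65 FPKM. E-cadherin (Cdh1) was at 122 FPKM in double-negative cells, 118 in single-positive cells and 127 in double-positive cells. Cldn7 was also lower in the Zscan4 sort, at 3.14 FPKM in positive against 7.49 in negative cells.

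Pannexins, which form membrane channels of another family, were read as well. Panx1 was the 1 of 3 that reached 1 FPKM, at 8.57 FPKM in double-negative cells, 7.15 in single-positive cells and 4.61 in double-positive cells, and no comparison reached 2-fold. Genes of the trophectoderm, a lineage in which Gjb5 is known, were mixed. Of the 6 that reached 1 FPKM, 2 were higher in single-positive cells than in the double-negative fraction, the AP-2 factor gene Tfap2c at 48.8 against 6.84 FPKM and Tead4 at 5.34 against 1.25. Lower were the keratin genes Krt18, at 2.16 against 10.2 FPKM, and Krt8, named after its values were seen, at 0.887 against 2.96. Among all rows, 1.82% were higher and 1.43% lower in this Esrrb step. With double-positive set against double-negative cells, 2 of the 6 were higher, Tfap2c and Tead4, and 2 lower, Gata3 and Krt18. The shares of all rows there were 3.81% higher and 12.2% lower. For Gata3 the single-positive level, 4.49 FPKM, lay nearer to the double-negative one, 6.42, than to the double-positive one, 0.251. Most fibroblast and T-lineage markers were likewise lower in double-positive than in single-positive cells. Their part in the Gata3 difference was not tested.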

How the data were processed

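RNA of 5 sorted fractions was sequenced, 2 libraries each and 10 in all. The build was mm10, and Cuffdiff 2.2.1, Cufflinks, TopHat2 2.0.14 and bcl2fastq 1.8.4 are named in the submitters' processing notes. The authors deposited FPKM values, 1 per row and fraction with both libraries merged. FPKM is scaled by transcript length and by mapped fragments and keeps no read depth. The sources used here name neither the annotation nor the scaling between libraries.

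The 13595 of 32361 rows that reached 1 FPKM anywhere were compared as differences of log2(FPKM + 1), with a size rule of 2-fold. The members, lists and rules were chosen with earlier results of these data known. The text names the connexins reported, up to 4 genes per list and comparison past 2-fold with at least 5 FPKM, and the 3 nearest profiles of each member. Any other list gene was picked with its values in view. Coordinates are the deposited ones, written from 1; strands and exons are from GENCODE M21 and promoter windows from RefSeq (GRCm38.p6). Some genes that the rule would name are not reported here. The comparison steps were run on simulated columns with changes planted in single-positive over double-negative only. The spread of these columns was set by hand, not measured, so the run does not show how often real differences are called. Python 3.11.15 with pandas 2.3.3, numpy 2.4.6 and matplotlib 3.10.9 was used. Alternatives covered the pseudocount, the filter, the scaling, summed rows and the size rule.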

Additional observations from a re-analysis of the deposited data

How the results depend on the processing

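No paired analysis was possible because the deposited table holds 1 merged value per fraction, and for the same reason no library could be left out. Gjb5 and Gjb1 kept their calls in both comparisons with double-negative cells under pseudocounts of 0.1 and 0.01, no filter, a 5 FPKM filter, 3 scalings, summed rows and a 1.5-fold rule. The third scaling, to equal totals without the 484 profile rows, was chosen after seeing the data. The Gjb5 difference ranged from 2.70 to 3.28 in single-positive over double-negative and from 3.38 to 4.08 in double-positive over double-negative cells. Under equal totals, with and without the profile rows, Gja1 in double-positive over double-negative cells moved from -0.75 to -0.87 and -0.90. Gjc1 moved there from 0.65 to 0.53 and 0.51. The Gja1 difference in single-positive over double-negative cells went as far as -0.99, still short of 2-fold. The counts of connexins moved only under the 1.5-fold rule. Under it, 2 members were higher and 1 lower in single-positive over double-negative, and likewise in double-positive over double-negative cells, where Gjc1 and Gja1 joined, and 1 was higher in double-positive over single-positive cells. Of all rows, 5.10% were then higher and 5.49% lower in the first of these comparisons, 9.92% higher and 20.5% lower in the second and 1.68% higher in the third. With Gjb1 included these counts were 3 higher and 1 lower in both comparisons with double-negative cells, and 1 higher in double-positive over single-positive cells. Unlike these counts, the shares of all rows past 2-fold moved with the pseudocount and the filter. Equal totals moved the median of all rows in double-positive over double-negative cells to -0.12, and to -0.14 without the profile rows, from -0.02. Unknown depth limits Gjb2 and Gja4 most.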

Other observations

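No difference was called between the reporter lines, since line and sort differ together. Shares of the double-negative level, orders over all fractions and nearest profiles do join both lines, so they carry that limit. Levels of the lines can be set side by side. Double-positive cells, with Esrrb at 243 and Tbx3 at 12.6 FPKM, held Gjb5 at 30.5 and Gja1 at 107 FPKM. Zscan4-negative cells, with Esrrb at 203 and Tbx3 at 11.4 FPKM, held Gjb5 at 13.8 and Gja1 at 166 FPKM. Gjc1 and Gjb1 were at 43.3 and 12.0 FPKM in double-positive and at 44.6 and 10.7 in Zscan4-negative cells.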
